A study of Drosophila melanogaster with 12 samples.

Results

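The comparison described here sets 2 F1 hybrids of Drosophila melanogaster against each other, SU26xZI418N and SU26xSU58. Both carry 1 genome of SU26, a line from Sweden, and they differ in the other parent, which is ZI418N from Zambia in the first and SU58 from Sweden in the second. The members are the 4 libraries titled with these 2 crosses, 2 per cross, among the 12 libraries of the series. The other 8 libraries are those of the lines SU26, SU58 and ZI418N and of the hybrid SU58xZI418N, and they serve here as context and in the estimate of the spread.

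All 12 libraries were made from poly-A RNA of Malpighian tubules of adult females aged 6 days, raised on cornmeal-molasses medium at 20 °C in a cycle of 14 h light and 10 h dark. No treatment and no engineered allele is given for any group, and the labels do not say which line was the mother of a cross or how many flies went into a library. The 2 libraries of a genotype are called biological replicates by the series design, so n = 2 for each mean, and p-values measure the spread between such samples.

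Malpighian tubules are the excretory organ of insects. Their principal cells pump protons and cations with a V-ATPase, their stellate cells pass chloride and water, and the tissue is also a site of detoxification. Cytochrome P450 enzymes oxidise plant compounds and insecticides, and glutathione S-transferases and UDP-glycosyltransferases attach glutathione or sugars to them so that they can be excreted. An F1 fly holds 1 copy of each autosome and, in females, 1 X chromosome from each parent. With SU26 common to both crosses, the nuclear genomes of these F1s differ in the copies that came from ZI418N or SU58.

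Summed gene counts were 37132279 and 36878661 in SU26xZI418N and 43479929 and 38321510 in SU26xSU58, within a range of 30834175 to 43479929 over the 12 libraries. Levels below are in CPM, counts scaled to library size with TMM factors. They are given as replicate 1 and then replicate 2, and they compare genotypes for 1 gene, since they are not divided by gene length. Markers of both tubule cell types were abundant. The 12 principal cell markers summed to 11890 and 10600 CPM in SU26xZI418N and 10860 and 13020 CPM in SU26xSU58, and 0 of them passed edgeR's quasi-likelihood test described below (1 was lower at an unadjusted p under 0.05, and 1 was lower with DESeq2). The 9 stellate cell markers summed to 1509 and 1187 CPM and to 1178 and 1186 CPM, and 1 of them was called higher (Prip) and 1 lower (TkR99D), 11.1% each against 1.72% and 3.01% of all genes tested. Both are described below.

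SU26xZI418N replicate 2 stood apart from the other 3 libraries, and results are given with and without it. The correlation of log2 CPM across genes was 0.95 between the SU26xZI418N libraries and 0.986 between the SU26xSU58 libraries (genes are not independent replicates). Markers of the female germ line summed to 860.0 CPM in that library, against 28.0 CPM in SU26xZI418N replicate 1 and 16.4 and 24.9 CPM in SU26xSU58. All 15 of the tested germ line markers had positive log2 fold changes, with a median of 4.59, and 0 passed edgeR's test with all libraries, while 13 were higher at an unadjusted p under 0.05 and 13 with DESeq2. Without SU26xZI418N replicate 1 all 15 passed, and without replicate 2 the count was 0 and the median 0.25. The oocyte gene osk stood at 1.75 and 111.4 CPM in SU26xZI418N and at 0.0692 and 0.452 CPM in SU26xSU58. Eggshell markers summed to 7.63 and 9.54 CPM in SU26xZI418N and to 1.75 and 2.29 CPM in SU26xSU58, and SU58 replicate 1, which enters the parental comparison below, had 414.8 CPM against 1.40 CPM in its replicate. The 9 markers of male accessory gland and testis were too low to be tested, at most 0.254 CPM in sum in these 4 libraries. The part of tissue carried along at dissection in the differences below was not tested other than by leaving libraries out and by a covariate.

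**Figure D1:**
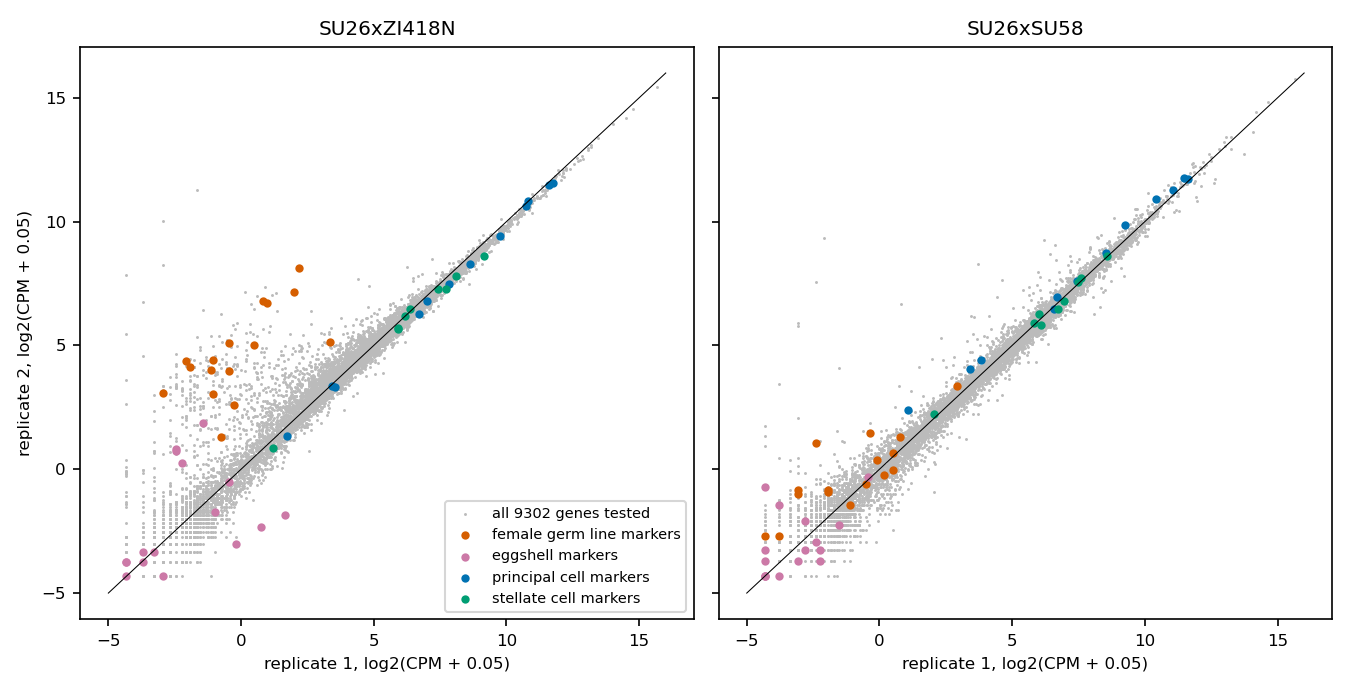
Log2(CPM + 0.05) of each of the 9302 genes tested in replicate 1 (x axis) and replicate 2 (y axis) of SU26xZI418N (left) and SU26xSU58 (right), with marker genes coloured and the line of equal levels. Female germ line markers lie above the line in SU26xZI418N, where they sum to 28.0 CPM in replicate 1 and 860.0 CPM in replicate 2, while principal and stellate cell markers lie close to it in both crosses.

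The first question was which genes differ between the tubules of flies that share their SU26 genome. Of 9302 genes tested, 440 (4.73%) passed an adjusted p of 0.05. There were 160 genes higher in SU26xZI418N (1.72%) and 280 lower (3.01%), and 260 of the 440 differed by at least 2-fold, 100 upward and 160 downward. The libraries of the crosses did not overlap for any of the 440, against 49.3% of all genes tested. The adjusted p-values are from edgeR's quasi-likelihood test, in which all 6 genotypes share 1 estimate of the spread, with Benjamini-Hochberg adjustment over all genes tested. At an unadjusted p under 0.05 in that test there were 2408 of the 9302 genes. DESeq2 called 1150 of 12904 genes, 640 higher and 510 lower. List counts of these 2 kinds are to be read against these numbers.

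The number of calls depended on single libraries. Without SU26xZI418N replicate 2, 196 genes were called (2.05%), 87 higher (0.912%) and 109 lower (1.14%), and without replicate 1 the count was 1903 (19.7%), 1386 higher (14.3%) and 517 lower (5.35%), so that most calls were then higher ones. Of the 160 higher genes 78 were also called without replicate 2 and 154 without replicate 1, and of the 280 lower genes 99 and 266 were. A set of 175 genes (1.88%) passed in the same direction with all libraries, without replicate 1 and without replicate 2, 76 higher (0.817%) and 99 lower (1.06%). These are called the retained genes below. Without SU26xSU58 replicate 1 there were 209 calls, 63 higher and 146 lower, and without SU26xSU58 replicate 2 there were 156, 44 higher and 112 lower. The retained genes were not chosen on those 2 fits, and of the 76 higher and 99 lower ones 48 and 89 were called without SU26xSU58 replicate 1 and 36 and 85 without replicate 2. Among them, 36 of the higher and 71 of the lower genes reached a mean of 10 CPM in the higher cross, and the 10 largest rises and falls described next come from these. The calls of all of them but CG1695, Culd, Cyp6a8, Cyp6w1 and Cyp6d5 were lost in a fit of the 4 hybrid libraries alone, which leaves 8 calls in all (1 higher and 7 lower).

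The gene with the largest rise was spz (FBgn0003495), which encodes Spätzle, the ligand of the Toll receptor. Its levels were 7.93 and 19.9 CPM in SU26xZI418N and 0.254 and 0.585 CPM in SU26xSU58, a log2 fold change of 5.07 ± 0.53 (SE; adjusted p = 0.00107). It stood at 38.1 and 46.1 CPM in ZI418N, at 0.511 and 0.382 CPM in SU58 and at 0.165 and 0.403 CPM in SU26. Both libraries of the hybrid with a Zambian parent thus lay between those of ZI418N and those of the Swedish lines and their hybrid, all of which had under 0.6 CPM. In the Ensembl annotation of BDGP6 it lies at 3R:27064990-27070070 on the minus strand. Among the 25 tested genes of peptidoglycan recognition and the IMD and Toll pathways it was the single gene called higher by edgeR, and PGRP-LA, a peptidoglycan recognition protein gene, fell 1.61-fold (14.7 and 13.3 against 22.8 and 22.2 CPM, adjusted p = 0.0402, and 0.189 without SU26xZI418N replicate 2). Of the 25, 12 had negative log2 fold changes, 6 were higher and 3 lower at an unadjusted p under 0.05, DESeq2 called 2 higher and 1 lower, and without SU26xZI418N replicate 1 edgeR called 5 higher and 1 lower. With all libraries, the 1 higher and 1 lower call were each 4.0% of these pathway genes, against 1.72% and 3.01% of all genes tested. The 10 tested antimicrobial peptide genes, which are known targets of these pathways, held 0 calls in either direction (1 higher and 3 lower at an unadjusted p under 0.05, 0 and 2 with DESeq2). Their summed level was 219.4 and 175.6 CPM in SU26xZI418N and 73.8 and 153.3 CPM in SU26xSU58, and their median log2 fold change was -1.21.

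Several genes that rose had intermediate levels in SU26xZI418N. PLCXD, a gene for a phospholipase C X-domain protein, stood at 179.4 and 145.2 CPM against 40.3 and 51.5 CPM, a 3.54-fold difference (adjusted p = 0.000825). The line ZI418N had 281.9 and 320.1 CPM of it, SU58 had 41.2 and 37.5 CPM and SU26 had 50.1 and 63.1 CPM. The gene a (arc), which encodes a PDZ-domain protein, was 3.90-fold higher (10.6 and 14.7 against 3.49 and 3.00 CPM, adjusted p = 0.00215). For both genes the hybrid with a ZI418N genome lay below ZI418N and above SU26, SU58 and SU26xSU58.

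CG16898 (FBgn0034480) also rose. It was found at 500.1 and 413.8 CPM in SU26xZI418N and at 94.3 and 112.2 CPM in SU26xSU58, 4.43-fold lower in the latter (adjusted p = 0.00074). SU26 itself had 267.2 and 382.5 CPM of it, between the 64.4 and 63.8 CPM of SU58 and the 705.1 and 899.2 CPM of ZI418N. CG31997 on chromosome 4 was 4.74-fold higher in SU26xZI418N (47.5 and 38.0 against 10.6 and 7.42 CPM) and CG12896 was 11.9-fold higher (12.6 and 9.31 against 0.877 and 0.957 CPM). CG31683 was 7.02-fold higher (12.98 and 11.8 against 2.15 and 1.36 CPM) and CG12581 was 3.37-fold higher (20.9 and 18.8 against 5.89 and 5.88 CPM). No overlap between the crosses was part of the rule that chose these genes.

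CG2247 (FBgn0030320, X:11606290-11611652, minus strand) exceeded its parents. Its level was 36.3 and 40.7 CPM in SU26xZI418N against 12.4 and 10.2 CPM in SU26xSU58, a log2 fold change of 1.77 ± 0.13 (adjusted p = 0.000177). ZI418N had 25.9 and 23.1 CPM and SU26 had 12.1 and 10.4 CPM, so both libraries of the hybrid lay above both libraries of each of its parents. The hybrid SU58xZI418N also had 30.8 and 31.9 CPM, above ZI418N and above the 12 and 13.2 CPM of SU58.

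Of the 10 largest falls, 3 were in cytochrome P450 genes, described below, and 7 in other genes. CG1695 (FBgn0031116, X:20433950-20445599, plus strand) had 2 counts over both SU26xZI418N libraries and 2046 over both SU26xSU58 libraries, a ratio of 978 with an exact 95% interval of 270.0 to 8080 that covers counting error only (adjusted p = 0.000154). Its CPM was 30.2 and 19.7 in SU26xSU58, 56.8 and 51.8 in SU58, and at most 0.665 in SU26 and ZI418N. CG12268 had 3 counts against 1031, a ratio of 329 with an interval of 112 to 1600 (adjusted p = 0.0019). The SU26xSU58 libraries themselves differed in it, at 5.17 and 21.5 CPM.

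Culd, a gene for a protein with CUB and LDLa domains, was 31.1-fold lower in SU26xZI418N (2.77 and 1.99 against 89.8 and 58.2 CPM, adjusted p = 0.000143). SU58 had 172.1 and 156.5 CPM of it, and SU26 and ZI418N had between 3.83 and 7.29 CPM. The scavenger receptor gene santa-maria, known for carotenoid uptake, was at 0.107 and 0.199 CPM against 16.9 and 6.89 CPM (log2 fold change -6.24 ± 0.79, adjusted p = 0.00313). It was highest in SU58, at 18.6 and 25.1 CPM, and it lost its call when SU58 replicate 1 and SU26xZI418N replicate 2 were left out together (adjusted p at most 0.0691 over all alternatives). CG9981 (2.15 and 1.54 against 28.7 and 19.8 CPM) and CG14120 (0.376 and 0.349 against 12.4 and 8.05 CPM) fell 13.1-fold and 28.0-fold. CG15772 fell 32.3-fold (0.457 and 0.249 against 11.4 and 11.5 CPM, adjusted p = 3.47e-05), and 38.6% of its exons lie opposite lin-52, whose reads cannot be told apart from its own where counting ignores strand. In each of these 7 genes both SU58 libraries lay above all libraries of SU26 and ZI418N.

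**Figure D2:**
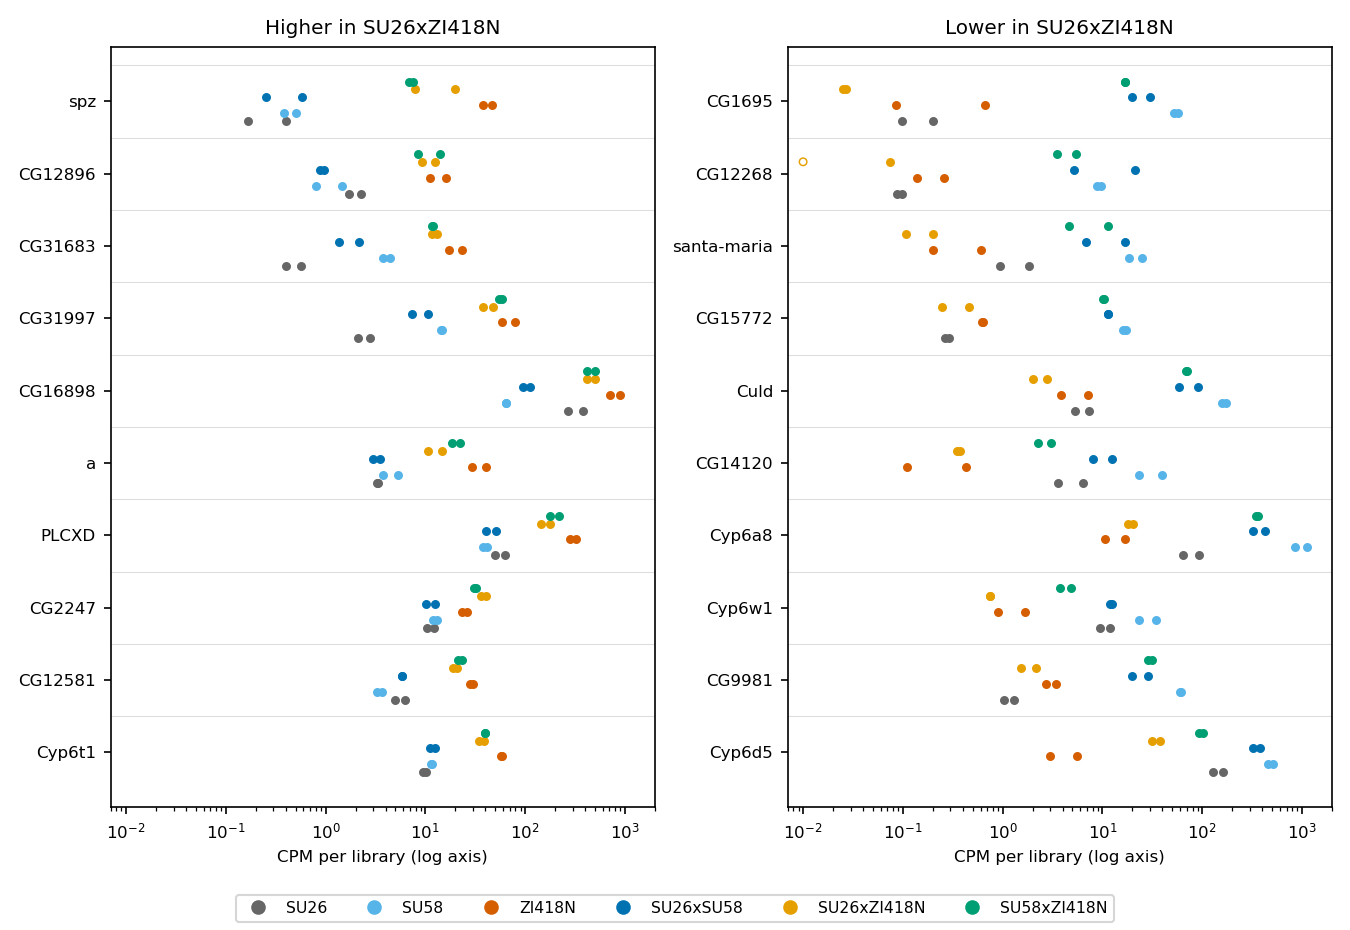
CPM per library (log axis) of the 10 genes with the largest rise (left) and the largest fall (right) in SU26xZI418N against SU26xSU58, among genes whose call was kept without either SU26xZI418N library. Each filled point is 1 library coloured by genotype, and the open point marks a library with no count, drawn at 0.01 CPM. For spz the SU26xZI418N libraries lie at 7.93 and 19.9 CPM, between the Swedish libraries and ZI418N, and for Cyp6a8 they lie at 18.2 and 20.2 CPM, below both SU26 libraries.

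Cytochrome P450 genes were lower in SU26xZI418N more often than higher. Of 82 members, 69 were tested, of which 3 were higher and 17 lower, 4.35% and 24.6% of them against 1.72% and 3.01% of all genes tested. The retained genes held 3 higher and 10 lower P450 genes, the counts without SU26xZI418N replicate 2 were 3 and 10, and those without replicate 1 were 5 and 25. Without SU26xSU58 replicate 1 they were 2 and 11, and without its replicate 2 they were 2 and 10. Over all genes, as given above, most calls without SU26xZI418N replicate 1 were higher ones. The median log2 fold change over the 69 was -0.38 (-0.29 without SU26xZI418N replicate 2), against 0.03 over all genes tested. The members summed to 14570 and 11940 CPM in SU26xZI418N and 18930 and 19590 CPM in SU26xSU58, so that the crosses did not overlap in the sum. Cyp6g1 alone, described below, held 5377 and 4440 CPM of the first sums and 8038 and 9424 CPM of the second. The sums therefore do not describe the family evenly.

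Cyp6a8 (FBgn0013772, 2R:14887171-14889010, minus strand), a P450 gene linked to insecticide resistance, fell most. It stood at 18.2 and 20.2 CPM in SU26xZI418N and at 320.7 and 421.9 CPM in SU26xSU58, a 19.3-fold difference (log2 fold change -4.27 ± 0.29, adjusted p = 0.000113). SU58 had 852.9 and 1126 CPM, SU26 had 63.9 and 93.6 CPM and ZI418N had 10.6 and 16.8 CPM. The hybrid with ZI418N was thus near ZI418N and below SU26 in each library. Cyp6w1 was 16.2-fold lower (0.752 and 0.747 against 12.5 and 11.8 CPM, adjusted p = 0.000213). Its libraries too lay below those of SU26, at 9.45 and 11.8 CPM, and just below those of ZI418N, at 0.908 and 1.69 CPM. Cyp6d5 was 10.1-fold lower (38.1 and 31.7 against 383.3 and 320.4 CPM, adjusted p = 0.000208), and here the hybrid lay between the 128.3 and 161.3 CPM of SU26 and the 5.53 and 2.96 CPM of ZI418N.

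The other retained P450 genes that fell did so by smaller amounts. Cyp28a5 (9.35 and 9.04 against 18.7 and 20.6 CPM) and Cyp4ae1 (27.7 and 20.9 against 48.6 and 48.7 CPM) were 2.14-fold and 2.00-fold lower. Cyp28d1 (76.7 and 68.8 against 125.0 and 157.2 CPM), Cyp12b2 (17.7 and 14.7 against 28.2 and 30.4 CPM), Cyp6a13 (44.7 and 44.6 against 93.0 and 86.9 CPM) and Cyp6a23 (309.6 and 236.7 against 543.2 and 515.7 CPM) were between 1.81-fold and 2.01-fold lower. The call of Cyp6a23 was lost without SU26xSU58 replicate 1 (adjusted p = 0.052). Cyp12d1-p was 2.04-fold lower (321.5 and 254.7 against 616.8 and 561.5 CPM, adjusted p = 0.00494), and the near-identical copy Cyp12d1-d had 165.9 and 135.1 against 325.3 and 305.2 CPM without passing (adjusted p = 0.0914). Reads may be split between these 2 copies in either direction, so their separate values are uncertain. Cyp318a1, Cyp4g15, Cyp12c1, Cyp6g1, Cyp309a1, Cyp6g2 and Cyp4p1 were also lower and lost their calls without SU26xZI418N replicate 2.

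Of 9 P450 genes linked to insecticide resistance, 5 were lower and 0 higher (3 and 0 without SU26xZI418N replicate 2), with a median log2 fold change of -1.03 (-0.87 without that library). The 5 lower genes (55.6% of the list, against 3.01% of all genes tested) were Cyp6a8, Cyp6w1, Cyp12d1-p, Cyp6g1 and Cyp6g2. Cyp6g1, the DDT resistance gene of this species, stood at 5377 and 4440 CPM in SU26xZI418N and 8038 and 9424 CPM in SU26xSU58, 1.78-fold lower (adjusted p = 0.0171, 0.118 without SU26xZI418N replicate 2 and 0.117 without SU26xSU58 replicate 2). Cyp6a2 did not pass (680.9 and 450.7 against 468.9 and 469.9 CPM, adjusted p = 0.343), and its replicates in SU26xZI418N lay on either side of SU26xSU58.

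The 3 P450 genes that rose were Cyp6t1, Cyp6a16 and Cyp6a14. Cyp6a16 stood at 331.1 and 288.1 CPM against 119.0 and 123.1 CPM (2.56-fold, adjusted p = 0.00021), and ZI418N had 568.0 and 623.7 CPM of it. Cyp6t1 was at 39.1 and 34.2 CPM against 11.2 and 12.5 CPM (3.09-fold, adjusted p = 9.24e-05) and Cyp6a14 at 106.1 and 93.0 CPM against 68.8 and 62.8 CPM (1.51-fold, adjusted p = 0.0217). The call of Cyp6a14 was lost without either SU26xSU58 library (0.0668 and 0.147). All 3 were also higher in ZI418N than in SU58.

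**Figure D3:**
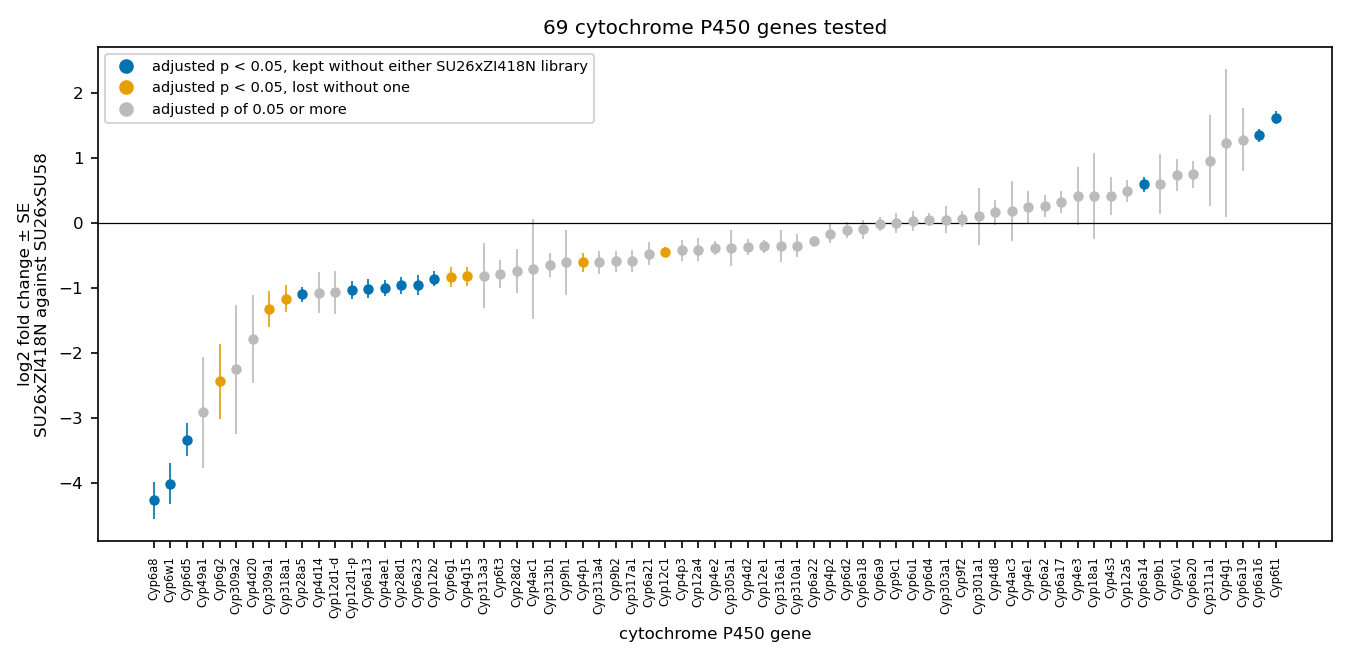
Log2 fold change of each of the 69 tested cytochrome P450 genes, SU26xZI418N against SU26xSU58, in ascending order, with bars for the standard error. Blue points kept their call without either SU26xZI418N library (10 lower and 3 higher), orange points lost it without 1 of them (7 lower), and grey points did not pass.

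Conjugating enzymes held calls in both directions, with more members lower than higher. Of 29 tested glutathione S-transferase genes 18 had negative log2 fold changes, with a median of -0.29. At an unadjusted p under 0.05 in edgeR 10 were lower and 3 higher, and DESeq2 called 9 lower and 2 higher. By edgeR's adjusted p 1 was higher and 5 were lower, 3.45% and 17.2% against 1.72% and 3.01% of all genes tested. The counts were 1 and 1 without SU26xZI418N replicate 2 (background 0.912% and 1.14%), 2 and 9 without replicate 1 (background 14.3% and 5.35%), 0 and 2 without SU26xSU58 replicate 1 and 1 and 1 without its replicate 2. GstE6 was 2.40-fold lower (48.8 and 43.0 against 101.9 and 117.9 CPM, adjusted p = 0.000705) and GstD9 was 1.71-fold higher (22.2 and 22.8 against 12.1 and 14.3 CPM, adjusted p = 0.00887). The call of GstD9 was lost without SU26xSU58 replicate 1 (0.0668) and with the germ line and eggshell level as a covariate. GstE10 had 266.2 and 210.1 against 397.3 and 441.6 CPM (adjusted p = 0.00858, 0.0502 without SU26xZI418N replicate 2 and 0.0659 without SU26xSU58 replicate 2). Of 29 UDP-glycosyltransferase genes 1 was higher (3.45%, against 1.72% of all genes tested) and 2 were lower (6.90%, against 3.01%). Negative log2 fold changes were found in 22 of the 29, with a median of -0.33. At an unadjusted p under 0.05 in edgeR 10 were lower and 2 higher, and DESeq2 called 7 lower and 1 higher. Ugt302E1 was 3.15-fold lower (13.7 and 12.6 against 38.6 and 44.4 CPM, adjusted p = 0.000853), with ZI418N at 1.96 and 2.49 CPM. Ugt50B3 fell and Ugt37A3 rose with adjusted p of 0.0351 and 0.0496, and neither passed without SU26xZI418N replicate 2 (0.0651 and 0.187).

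Transport genes of the tubule were described in 3 lists. Of 20 V-ATPase subunit genes 0 passed edgeR's test in either direction (3 were lower at an unadjusted p under 0.05, 1 with DESeq2), with summed levels of 31000 and 26430 CPM in SU26xZI418N and 28740 and 30950 CPM in SU26xSU58, which overlap. Of 30 genes of ion and water transport 2 were higher (6.67%, against 1.72% of all genes tested) and 1 lower (3.33%, against 3.01%). Prip, a stellate cell aquaporin, was 1.40-fold higher (173.0 and 155.4 against 122.6 and 111.5 CPM, adjusted p = 0.0145, 0.0234 without SU26xZI418N replicate 2 and 0.106 without SU26xSU58 replicate 2). ZI418N had 216.6 and 207.2 CPM of Prip and the Swedish lines between 105.4 and 113.5 CPM. The entomoglyceroporin genes moved in opposite directions, with Eglp1 at 3.22 and 3.46 against 1.64 and 1.33 CPM (adjusted p = 0.0339) and Eglp4 at 135.3 and 123.2 against 241.8 and 302.3 CPM (adjusted p = 0.0487), and neither call held without SU26xZI418N replicate 2 (0.0874 and 0.219).

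Among 31 transporters of organic solutes and metals 0 were higher and 2 lower (6.45%, against 3.01% of all genes tested). The multidrug ABC transporter gene Mdr49 stood at 371.6 and 374.2 CPM against 656.1 and 605.0 CPM (1.69-fold lower, adjusted p = 0.00219), close to the 334.5 and 366.7 CPM of ZI418N. The organic anion transporter gene Oatp33Eb stood at 120.4 and 100.6 CPM against 184.6 and 202.6 CPM (1.75-fold lower, adjusted p = 0.00697). Both calls were kept without either SU26xZI418N library, and that of Oatp33Eb was lost without SU26xSU58 replicate 2 (0.0567). Of 13 hormone and amine receptor genes 1 was lower, the tachykinin receptor gene TkR99D (2.26 and 1.74 against 4.09 and 4.63 CPM, adjusted p = 0.0344, and 0.126 without SU26xZI418N replicate 2). The 1 lower gene was 7.69% of the receptor genes tested, against 3.01% of all genes tested. The leucokinin receptor gene Lkr, whose product is the diuretic receptor of stellate cells, did not pass (61.0 and 51.7 against 67.0 and 57.3 CPM).

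Genes of juvenile hormone and ecdysone numbered 22, of which 0 were higher and 3 lower (13.6%, against 3.01% of all genes tested). The 3 were Jheh1, Jheh2 and Jheh3, which encode juvenile hormone epoxide hydrolases, and none kept its call without SU26xZI418N replicate 2 (196 genes were called there). Jheh2 had 102.2 and 89.6 against 194.9 and 181.2 CPM (adjusted p = 0.00843, 0.065 without SU26xZI418N replicate 2 and 0.0529 without SU26xSU58 replicate 1). Their exons lie opposite the antisense gene asRNA:CR46485 over 100%, 91.6% and 49.5% of their length, and without strand its reads cannot be told apart from theirs.

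Metallothioneins, which bind metal ions, and antioxidant enzymes had 0 higher and 3 lower genes of 21 (14.3% lower, against 3.01% of all genes tested). Sod3, for extracellular superoxide dismutase, was 1.56-fold lower (49.5 and 57.5 against 87.1 and 79.6 CPM, adjusted p = 0.00701, and 0.0094 without SU26xZI418N replicate 2). MtnA stood at 29.3 and 27.3 CPM in SU26xZI418N and 340.9 and 141.5 CPM in SU26xSU58, a log2 fold change of -3.09 ± 0.58 (adjusted p = 0.0182, 0.114 without SU26xZI418N replicate 2 and 0.0838 without SU26xSU58 replicate 1). The level in SU26xZI418N was below every library of its parents, with SU26 at 1066 and 609.6 CPM and ZI418N at 370.2 and 1098 CPM. SU26xSU58 was also below its parents, since SU58 had 1581 and 1225 CPM. MtnE had under 1 CPM in all 4 hybrid libraries and its call was lost without SU26xZI418N replicate 2 (adjusted p = 0.168).

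Of 8 genes with expression differences between African and non-African flies in earlier studies, 0 were higher (against 1.72% of all genes tested) and 3 lower (37.5%, against 3.01%), which were MtnA, Cyp6g1 and Cyp6a23 from the lists above. Without SU26xZI418N replicate 2 there was 1 lower and 1 higher. The gene that was then higher was CHKov1 (55.9 and 45.2 against 37.5 and 40.7 CPM, adjusted p = 0.0819 with all libraries and 0.0384 without replicate 2). The gene fiz did not pass (3541 and 3170 against 4234 and 3872 CPM, adjusted p = 0.215).

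Single genes passed in several of the remaining lists. The single lower calls were 8.33% of the carbohydrase genes, 5.0% of the purine, tryptophan and pigment genes and 4.55% of the heat shock genes. Of all genes tested 3.01% were lower. The maltase gene Mal-B2 was the single call among 12 amylases and digestive carbohydrases, at 27.6 and 24.8 CPM against 57.2 and 55.3 CPM (2.15-fold lower, adjusted p = 0.000825), with 4.54 and 4.404 CPM in ZI418N and between 46.2 and 56.6 CPM in the Swedish lines. Adss, for adenylosuccinate synthetase, fell among 20 genes of purine, tryptophan and eye pigment metabolism (822.2 and 707.2 against 1114 and 1031 CPM, adjusted p = 0.0493). The small heat shock protein gene l(2)efl fell among 22 heat shock genes (6.26 and 6.70 against 11.1 and 13 CPM, adjusted p = 0.0499). Of the 22, 18 had negative log2 fold changes, with a median of -0.595 (1.38 between ZI418N and SU58). At an unadjusted p under 0.05 in edgeR 6 of them were lower and 0 higher, and DESeq2 called 1 lower and 0 higher. The calls of Adss and l(2)efl did not hold without SU26xZI418N replicate 2 (0.255 and 0.149). There were 0 calls in either direction among 86 cytosolic and 72 mitochondrial ribosomal protein genes, 33 genes of respiratory complex I, 40 of complexes II to V, 32 proteasome genes, 12 clock genes and 2 Turandot stress genes. At an unadjusted p under 0.05 in edgeR, 10 genes of complex I, 8 of complexes II to V, 8 mitochondrial and 5 cytosolic ribosomal protein genes, 1 proteasome gene, both Turandot genes and 0 clock genes were lower, and 2 mitochondrial and 1 cytosolic ribosomal protein genes were higher. DESeq2 called 4 genes of complex I, 3 of complexes II to V, 1 of each ribosomal list and 1 Turandot gene lower, 1 cytosolic ribosomal protein gene higher and 0 proteasome and clock genes. Negative log2 fold changes were found in 31 of 33 genes of complex I (median -0.181) and 32 of 40 of complexes II to V (median -0.126). These medians were -0.0858 and -0.0381 without SU26xZI418N replicate 2, and -0.271 and -0.231 without replicate 1. Their size thus depended on single libraries.

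The second question was how the difference between the hybrids relates to that between the parents that they do not share. ZI418N and SU58 share no library with the hybrids, and 1573 genes differed between these lines (16.9%), 705 higher (7.58%) and 868 lower (9.33%) in ZI418N. The 2 comparisons do share the estimate of the spread. Of the 440 genes called between the hybrids, 390 were called in the same direction between the lines, which is 88.6% of the hybrid calls and 24.8% of the parental calls. The 390 were 132 of the 160 higher genes and 258 of the 280 lower genes. Without SU26xZI418N replicate 2, 192 of 196 hybrid calls (98.0%) were called in the same direction between the lines in the same fit.

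Of the 175 retained genes, 172 were called in the same direction between ZI418N and SU58, which is 98.3% of them and 10.9% of the parental calls. The other 3 were chinmo, which was called in the opposite direction, and Cep135 and Nup133, which were not called between the lines. Cep135, a centriole protein gene, stood at 9.7 and 10.7 CPM in SU26xZI418N and 4.39 and 3.40 CPM in SU26xSU58 (adjusted p = 0.0131), and at 7.89 and 4.96 CPM in ZI418N and 4.22 and 4.96 CPM in SU58. Nup133, a nuclear pore gene, stood at 15.96 and 21.5 against 11.5 and 10.7 CPM (adjusted p = 0.0171), with 14.0 and 14.4 CPM in ZI418N and 12.3 and 11.8 CPM in SU58.

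Among the genes called between the lines with at least a 2-fold difference, the hybrids differed by less. The 297 genes higher in ZI418N had a median log2 fold change of 1.90 between the lines and 0.89 between the hybrids, and 271 of them were higher in SU26xZI418N and 108 called. The 473 genes lower in ZI418N had medians of -2.11 and -1.04, with 453 lower in SU26xZI418N and 195 called. Medians over all genes tested were 0.01 between the lines and 0.03 between the hybrids. Leaving out SU26xZI418N replicate 2 gave 0.885 and -0.998 for the hybrids. On the linear scale, over the 323 of these genes that reached 10 CPM, the hybrid difference was a median 46.9% of the parental difference, with quartiles of 30.7% and 60.3%. With 1 SU26xZI418N library at a time the median was 45.8% for replicate 1 and 46.4% for replicate 2.

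The level of each called gene in the shared parent SU26 was set against those of the other parents. Of the 160 genes higher in SU26xZI418N, SU26 was nearer to SU58 than to ZI418N in 132 and nearer to ZI418N in 28, on the scale of log2(CPM + 0.5). Of the 280 lower genes it was nearer to ZI418N in 132 and nearer to SU58 in 148. Of the retained genes, SU26 was nearer to SU58 in 65 and nearer to ZI418N in 11 of the 76 higher genes, and nearer to SU58 in 48 and nearer to ZI418N in 51 of the 99 lower genes. SU26 was nearer to SU58 in 5143 of all 9302 genes tested (55.3%), in 449 of the 705 parental calls higher in ZI418N (63.7%) and in 497 of the 868 lower ones (57.3%). The difference in these counts between higher and lower genes was not tested. A given CPM difference between the hybrids is a larger log2 fold change where the level from the shared SU26 genome is low. The rule for calls can therefore itself shape these counts, and nothing is concluded from them. Cyp6t1 and spz are among those in which SU26 resembled SU58, and Culd and CG1695 are among those in which it resembled ZI418N.

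**Figure D4:**
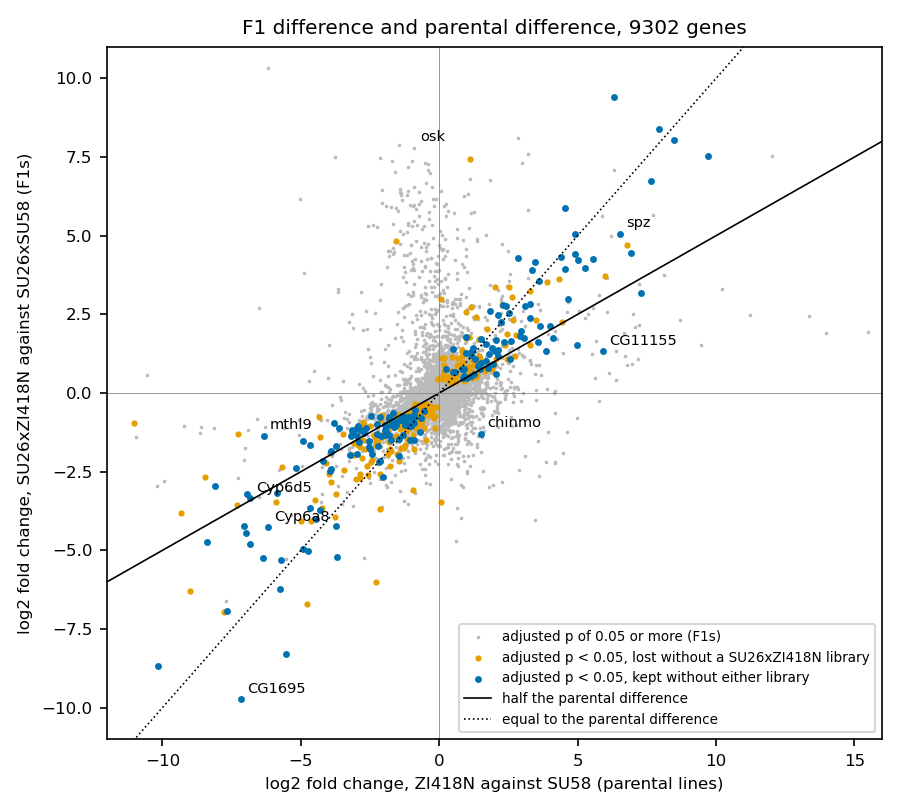
Log2 fold change between the parental lines ZI418N and SU58 (x axis) and between the hybrids SU26xZI418N and SU26xSU58 (y axis) for 9302 genes, with lines at 0.5 times and at 1 times the parental difference. The 175 genes in blue kept their call without either SU26xZI418N library, and all of them but chinmo lie in the quadrants where both differences have the same sign. Grey points did not pass, among them osk, at 1.75 and 111.4 CPM in the SU26xZI418N libraries.

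A direct test asked whether the hybrid difference departs from 0.5 times the parental difference on the log2 scale. It called 14 of 9302 genes (0.151%), 7 above (0.0753%) and 7 below (0.0753%) that value, with edgeR's quasi-likelihood test, and 1146 genes had an unadjusted p under 0.05. The 14 were mthl9, CG11155, CG16800, chinmo, CG15772, Ldsdh1, CG2247, CG8539, loaf, CG9701, Reepl1, CG7402, Culd and CG1695. On the log2 scale a hybrid that held the mean CPM of its parents would not lie at 0.5 times the log2 difference, so the CPM values are given beside each gene.

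For some of the 14 genes the hybrids were close to 0.5 times the parental difference in CPM. CG11155 on chromosome 4 had 200 and 185.3 CPM in SU26xZI418N and 82.4 and 70.7 CPM in SU26xSU58, a difference of 116 CPM against 112 CPM for 0.5 times the parental difference. ZI418N had 216.0 and 238.0 CPM, SU58 had 3.87 and 3.69 CPM and SU26 had 165.9 and 154.2 CPM. Culd and CG1695, described above, differed by -71.6 and -24.9 CPM between the hybrids, against -79.4 and -27.0 CPM for 0.5 times the parental difference. The hybrids were further from that value in mthl9, a gene of the methuselah receptor family. Its levels were 33.8 and 38.3 CPM in SU26xZI418N and 92.6 and 92.0 CPM in SU26xSU58. The difference was -56.3 CPM against -40.5 CPM, which is 69.5% of the parental difference. ZI418N had 0.880 and 1.14 CPM of it, SU58 82.2 and 81.7 CPM and SU26 109.4 and 94.6 CPM. Its departure (log2 1.81 ± 0.13, adjusted p = 0.000841) was the single one that passed under every alternative tried, with a highest adjusted p of 0.0416.

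In chinmo, Ldsdh1 and CG2247 the hybrids were far from 0.5 times the parental difference on both scales. The transcription factor gene chinmo, a BTB zinc finger gene, stood at 4.35 and 3.93 CPM in SU26xZI418N and 11.01 and 9.30 CPM in SU26xSU58, 2.45-fold lower (adjusted p = 0.00442, and 0.0383 without SU26xZI418N replicate 2). Between the lines it ran the other way, with 41.0 and 53.6 CPM in ZI418N and 15.7 and 17.8 CPM in SU58 (parental adjusted p = 0.000433). SU26 had 6.31 and 5.24 CPM, so both SU26xZI418N libraries lay below both parents, and the other ZI418N hybrid had 9.28 and 11.3 CPM. The departure was -2.04 ± 0.20 (adjusted p = 0.00378, and at most 0.154 over the alternatives). It lies at 2L:1651258-1704682 on the plus strand in BDGP6.

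Ldsdh1, for a lipid droplet dehydrogenase, did not pass between the hybrids (24.6 and 22.6 against 19.3 and 23.4 CPM, adjusted p = 0.573) while ZI418N had 26.8 and 31.8 CPM and SU58 had 2.21 and 1.75 CPM. SU26 had 19.1 and 21.8 CPM, and the SU26xSU58 libraries overlapped those of SU26 and lay above those of SU58. The hybrid difference was 2.19 CPM against 13.7 CPM for 0.5 times the parental difference (departure -1.80 ± 0.17, adjusted p = 0.00378). CG2247 differed by 27.2 CPM between the hybrids against 5.97 CPM (departure 1.29 ± 0.14, adjusted p = 0.0109), and CG15772 by -11.1 against -8.07 CPM.

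**Figure D5:**
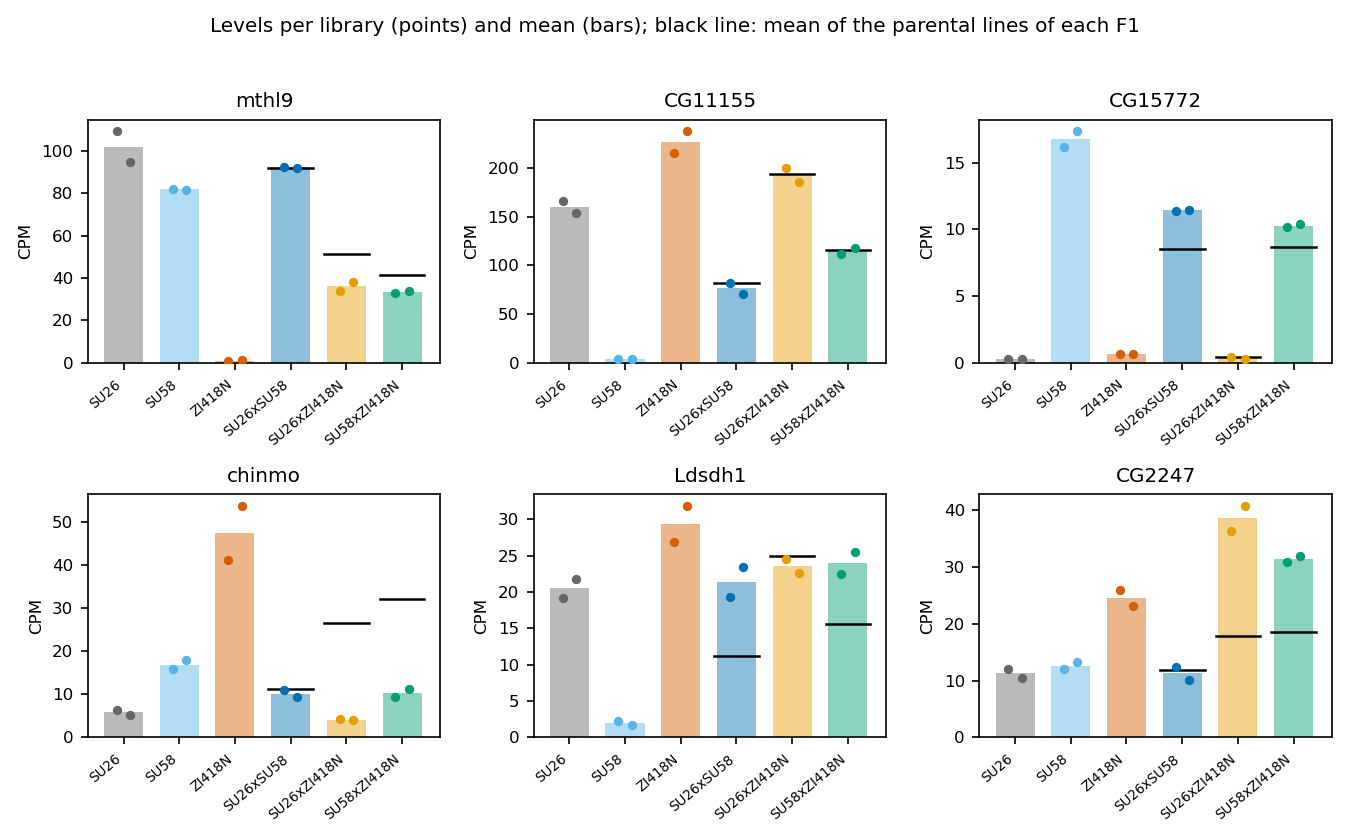
CPM of 6 genes whose hybrid difference departed from 0.5 times the parental difference on the log2 scale, in all 6 genotypes. Bars are means, points are the 2 libraries, and the black line over each hybrid is the mean of its parental lines. SU26xZI418N lies on its line for CG11155, below it for chinmo (4.35 and 3.93 CPM) and above it for CG2247 (36.3 and 40.7 CPM).

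Calls between the hybrids were spread over the chromosome arms. The share called was 5.44% of 1674 genes on 2L, 5.18% of 1913 on 2R, 4.29% of 1772 on 3L, 4.75% of 2317 on 3R and 3.89% of 1542 on X. On the small chromosome 4 it was 4 of 68 genes (5.88%), among them CG31997 and CG11155. Of 13 mitochondrial genes 0 were called by edgeR or DESeq2, and 0 had an unadjusted p under 0.05. The retained genes made up between 1.47% (3L) and 2.15% (2L) of the genes tested on the large arms.

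Some markers of other tissues were called. The lower calls were 28.6% of neuronal, 20.0% of trachea and epidermis and 6.67% of gut markers tested, against 3.01% of all genes. The higher call was 10.0% of hemocyte markers, against 1.72% of all genes. The synaptic vesicle gene nSyb stood at 1.94 and 1.42 CPM in SU26xZI418N and 5.52 and 5.88 CPM in SU26xSU58 (adjusted p = 0.00814, and 0.0458 without SU26xZI418N replicate 2), and Syt1 was also lower among 7 neuronal markers, at 0.134 and 0.249 against 1.59 and 0.957 CPM (adjusted p = 0.0387, and 0.0991 without replicate 2). The phagocytic receptor gene crq was higher among 10 hemocyte markers (155.2 and 155.3 against 124.7 and 122.7 CPM, adjusted p = 0.048), Gasp lower among 5 of trachea and epidermis and iotaTry lower among 15 gut digestive enzymes, and these 3 calls were lost without SU26xZI418N replicate 2. Of the 7 neuronal markers 5 had negative log2 fold changes, and the 7 ran from -2.71 to 0.322. Their median was -0.154, and 0.0 without SU26xZI418N replicate 2. All 12 neuronal markers summed to 56.18 and 53.76 CPM in SU26xZI418N and 58.48 and 48.01 CPM in SU26xSU58, which overlap. Of the hemocyte markers 8 had negative log2 fold changes, with a median of -0.96, and 2 were lower at an unadjusted p under 0.05 and 2 with DESeq2. All 5 tested markers of trachea and epidermis had negative log2 fold changes, from -1.03 to -0.549 with a median of -0.958. Of these, 3 were lower at an unadjusted p under 0.05 in edgeR and 1 with DESeq2. Of the 15 muscle markers 12 had negative log2 fold changes, with a median of -0.301. Of the gut enzymes 5 had negative log2 fold changes, with a median of 0.63, and without SU26xZI418N replicate 1 there were 5 higher and 2 lower. Of 15 muscle, 8 yolk and fat body, 3 salivary gland and 4 tubule stem cell markers 0 were called by edgeR (3, 2, 0 and 1 were lower at an unadjusted p under 0.05, and DESeq2 called 1 salivary gland marker higher and 1 stem cell marker lower). Fewer cells of a type and less RNA per cell cannot be told apart in such whole-tissue libraries.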

How the data were processed

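RNA of 12 tubule libraries (6 genotypes, 2 each) was sequenced as paired reads of 125 bases, per the labels' protocols. The deposited values are counts per gene, per the file headers, which also name an identifier, CG number, chromosome and length. Not given in the sources used here are the aligner, counting tool, strand setting, build and treatment of multi-mapping reads. The counts were whole numbers with no sign of normalization. The deposited gene length has a unit of its own (other) and was not used. The files hold 13919 genes. Names came from the identifier for 13749, the CG number for 146 and neither for 24, and 1015 genes had no count in any library. Coordinates are from the Ensembl BDGP6 annotation, which may differ from the authors' build (arms agreed for 13746 of 13749 genes).

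Genes were filtered with filterByExpr and scaled with TMM factors, and a mean per genotype was fitted to all 12 libraries with edgeR 4.0.16 in R 4.3.3 (6 residual and 3.08 prior degrees of freedom, median biological coefficient of variation 14.4%). Contrasts were SU26xZI418N against SU26xSU58, ZI418N against SU58, and the first minus 0.5 times the second. The quasi-likelihood test of edgeR was used, and p-values were adjusted after Benjamini and Hochberg, with a threshold of 0.05. An SE is |log2 fold change| over the root of the F statistic. On simulated data for the hybrid contrast (9193 genes) the test recovered 65% of 2-fold and 95% of 4-fold changes, with 4.76% false calls. The simulated counts were drawn independently for each gene from a mean common to all genotypes, apart from the changed genes. They held no library that stands apart as SU26xZI418N replicate 2 does. These rates therefore do not measure recovery or false calls in the real libraries. The mean chi-square per gene between replicates was 10.7 to 93.4, so none is a copy. The spread between libraries, rather than counting error, limited the precision of most named genes at the total counts given above.

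The members and lists were chosen with earlier results of these data known. Named genes are the 10 largest rises and falls among retained genes with at least 10 CPM, up to 3 called members per list, the 5 lowest adjusted p of the departure test with at least 10 CPM, and fiz, MtnA, Cyp6g1 and CHKov1. The rules for rises, falls and list members also required no overlap between the crosses. Called P450 members, CG16800, CG8539, loaf, CG9701, Reepl1, CG7402, Cep135, Nup133, Cyp6a2, Cyp12d1-d, Lkr, GstE10 and single markers were named beside their counts after their values were seen. The list entries Dpt, BaraA, Hop, Dl and nos were not found by name. Lists share members (the insecticide-linked genes are P450 genes, and MtnA, Cyp6g1 and Cyp6a23 are in 2 lists). The alternatives were DESeq2 1.42.0, RLE size factors, filters, the groups of a contrast alone, the replicate number as a block, each library left out, 2 libraries left out together, and the germ line and eggshell level as a covariate. Same-numbered libraries were not treated as paired in the main fit, and the labels do not say whether they are. Correlations of their deviations ran from -0.22 to 0.32, with 4 of 15 pairs over 0.1. The highest, 0.32, was between SU26xSU58 and SU26xZI418N, the crosses compared here. With the replicate number as a block 366 genes were called between them, against 440 in the main fit.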

Additional observations from a re-analysis of the deposited data

Results flagged for a closer look

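In 8 named genes the hybrid difference departed from 0.5 times the parental difference on the log2 scale by edgeR's quasi-likelihood test (adjusted p from 0.000841 to 0.0393). The departure was above that value for CG2247 (1.29) and mthl9 (1.81). It was below for CG1695 (-6.16), CG15772 (-2.65), Culd (-2.51), CG11155 (-1.62), Ldsdh1 (-1.80) and chinmo (-2.04). The value for CG1695 rests on 2 counts in SU26xZI418N and depends on the prior count of the fit, so it is no measure of size.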

How the results depend on the processing

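The 440 hybrid calls (160 higher, 280 lower) became 1150 with DESeq2 (640 and 510), 8 in a fit of the 4 hybrid libraries alone (1 and 7), 118 without SU58 replicate 1 and SU26xZI418N replicate 2 (57 and 61) and 181 with the germ line and eggshell level as a covariate (74 and 107). Leaving out single libraries gave 156 to 1903 calls: 156 and 209 without SU26xSU58 replicate 2 or 1, 196 and 1903 without SU26xZI418N replicate 2 or 1, and 246 and 247 without SU58 replicate 2 or 1. With the replicate block there were 366 (128 and 238). The 1573 parental calls became 2459 in a fit of the 4 parental libraries alone, 860 without the 2 libraries named above and 703 to 1877 without single libraries (703 and 723 without an SU58 library, 831 and 853 without a ZI418N library). The 14 departures became 190 with DESeq2, 6 in the fit of 8 libraries, 7 with the replicate block, 2 without those 2 libraries, 2 with the covariate and 7 to 1060 without single libraries (1060 without SU26xZI418N replicate 1). The 390 hybrid calls shared with the parents became 192 without SU26xZI418N replicate 2, a setting added after seeing the data. Leaving out single hybrid libraries (those of SU26xSU58 for the lists were added after seeing the data) gave 2 to 5 higher and 10 to 25 lower P450 genes, 3 to 5 lower insecticide-linked P450 genes, 1 to 9 lower glutathione S-transferases, 0 to 5 lower hormone genes, 1 to 3 lower metallothionein and antioxidant genes and 1 to 3 lower genes of the African list. The cause of these moves was not tested, and fits of fewer libraries also have fewer degrees of freedom. No direction among the 51 named genes reversed. Of the 48 called, 26 were called under all alternatives other than the fit of the 4 hybrid libraries alone. These 26 include the 5 that were called under all 20 alternatives.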
